A study of Mus musculus with 3 samples.

Results

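The T cell receptor alpha and delta chains are encoded by 1 nested locus on mouse chromosome 14, and 9 of its segments plus the neighbouring gene Dad1 are described here. The 10 were Trdd1, Trdj1 and Trdc of the delta cluster, Traj61 and Trac of the alpha joining and constant end, the variable segments Trav13d-3, Trav15d-2-dv6d-2, Trav15n-2 and Trav13n-3, and Dad1. They were selected on their H3K27ac peaks in these lists, out of 49943 RefSeq genes of the mm10 build and out of 202 segments that RefSeq places between Trav1 and Trac. Every peak within 5 kb of each was read. The presence, number and height of those peaks are therefore a description, and none of them was tested.

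The mark measured was H3K27ac, the acetylation of lysine 27 of histone H3 that is found at active promoters and enhancers, in wild-type thymocytes of C57BL/6J mice aged 5 to 7 weeks. The cells were sorted from thymus as CD4-CD8- double negative (CD25+CD44-/+), taken straight from the animal and not treated. There were 2 replicates, both of this single group, and the 1 input sample was not analysed here, so no condition could be compared and no background was measured in the same way. Nothing in the labels says whether the replicates came from separate mice, and a spread between them may be technical.

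In developing T cells, V, D and J segments are cut and joined to build the receptor genes. The delta segments lie inside the alpha locus, between the variable segments and the alpha joining segments, so joining a V segment to an alpha J segment deletes them. The delta locus is known to be opened and rearranged in double-negative cells through the delta enhancer, which lies between Trdj2 and Trdc. The alpha locus is known to be rearranged later, in double-positive cells, through the alpha enhancer, which lies between Trac and Dad1.

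On the assembled chromosomes 12377 peaks were listed for replicate 1 and 9477 for replicate 2. Read counts are not in the peak lists, so depth is unknown and no counting interval is given. The median fold enrichment, the ratio of signal at a peak to the background used by the authors' caller, was 2.17 and 2.31. Of the markers of the sort, Il2ra, which encodes CD25, had peaks in both replicates that did not overlap, Cd44 had a peak in replicate 1 alone, and Cd4, Cd8a and Cd8b1 had none. Peaks of both replicates lay within 5 kb of 5 of 7 T lineage markers (all but Ptcra and Thy1). They lay within 5 kb of 0 of 22 markers of B, myeloid, NK and gamma-delta, erythroid and stromal cells. Over all protein-coding genes the share was 24.9%. Of the 5, Cd3d, Cd3e and Cd3g are neighbours on chromosome 9, with largest folds of 1.08 to 1.26. Cd3d and Cd3g had the same values, so the 5 are not independent. Peaks in replicate 1 alone lay at Sox13 and Blk of the NK and gamma-delta markers. The peak lists cannot show whether a mark lies in all cells or in a few.

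Peaks of both replicates lay within 5 kb of 6 of the 10 members: Trdj1, Dad1 and the 4 variable segments. Over all RefSeq genes this held for 14.5%, and a peak lay within 5 kb of 23.3% in replicate 1 and of 19.5% in replicate 2. At 5 of the 6, all but Dad1, the peaks of the replicates overlapped, as they did at 12.4% of all genes. Trdd1 had a peak in replicate 1 alone and Trac in replicate 2 alone. Trdc and Traj61 had none in either. The peak of Trac, at 3447 bp, was the farthest inside the 5 kb limit, and the nearest one outside it lay 7020 bp from Trdc in replicate 1.

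**Figure D1:**
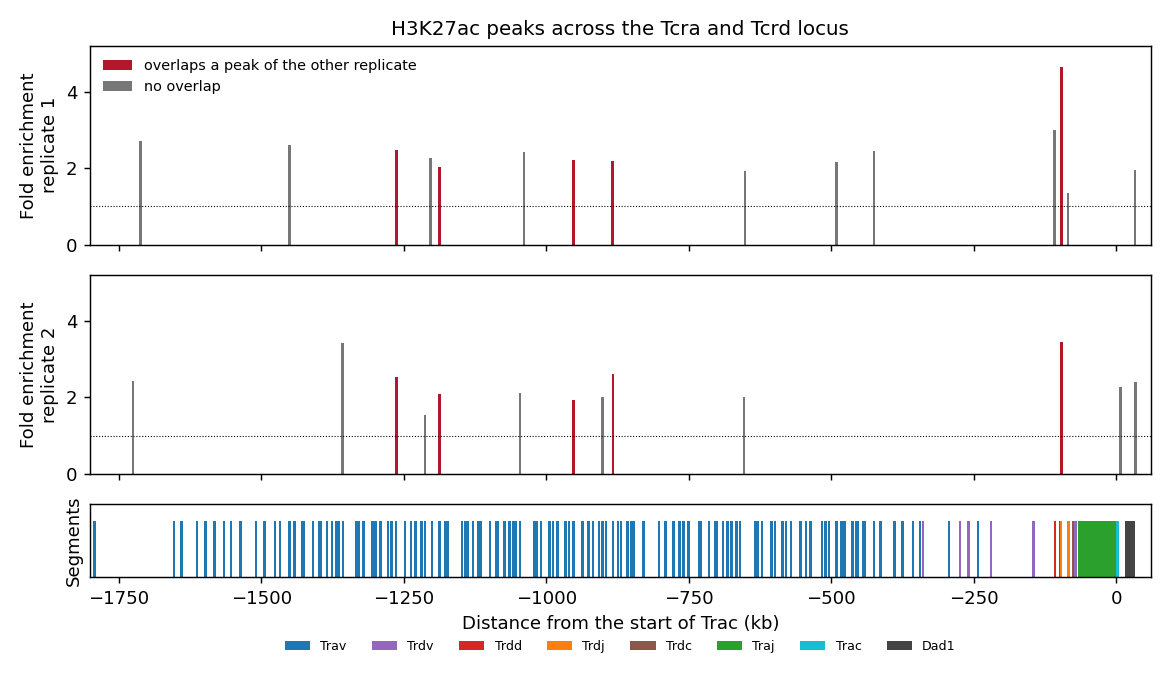
Peaks of each replicate across the Tcra and Tcrd locus, drawn at their distance from the start of Trac (kb) with the height giving the fold enrichment, above the positions of the segments. Narrow features are widened to be visible, and red bars overlap a peak of the other replicate. Shared peaks lie on 4 variable segments and beside Trdj1, where the bars reach 4.65 and 3.46, and the block of Traj segments has no bar.

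The tallest acetylation of the whole locus lay in the delta cluster, just beyond Trdj1, the first delta joining segment (chr14:54123138-54123188). In replicate 2 the margin was small, as the peak at Trav15d-1-dv6d-1 had a fold of 3.43. In replicate 1 the peak beside Trdj1 ran from 54123845 to 54124128, 656 bp from Trdj1, with a fold of 4.65, a −log10 p of 7.90 and a −log10 q of 5.56. In replicate 2 it ran from 54123674 to 54125095, 485 bp from Trdj1, with a fold of 3.46, a −log10 p of 5.18 and a −log10 q of 3.29. The narrow peak of replicate 1 (284 bp) lay wholly inside the broad one of replicate 2 (1422 bp). The mean fold was 4.06 ± 0.84 (SD, n = 2).

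Within each replicate this peak stood high by fold, and less so by q. Its fold exceeded that of 97.8% of all peaks of replicate 1 and of 89.4% in replicate 2, and on chromosome 14 of 99.3% and 95.2%. Its −log10 q exceeded that of 92.7% and 84.7% of all peaks. The ranks by fold on chromosome 14 count 104 and 86 peaks with a fold under 2 and a −log10 p of at least 5. Many of those had a larger −log10 q than the peak beside Trdj1. Trdj1 was the only member with a peak of q at most 0.05 in both replicates, a rule that 2.61% of all RefSeq genes met. The same peak lay within 5 kb of Trdd2, the second diversity segment, at 1603 bp and 1432 bp. Trdd2 and Trdj1 thus share 1 nearby peak, which covered neither segment. Both peaks lay inside Gm30275, a long non-coding RNA gene (chr14:54067437-54125733) whose span also holds Trdv4, Trdd1, Trdd2 and Trdj1 itself. RefSeq places it on the minus strand, so its start is the end near Trdj1, 1605 bp from the peak of replicate 1 and 638 bp from that of replicate 2.

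At Trdd1, the first diversity segment (chr14:54113468-54113476), replicate 1 had a peak before the segment, from 54112031 to 54112500. It lay 967 bp away and had a fold of 3.01 and a −log10 q of 2.98, the second tallest of the locus in that replicate. Replicate 2 had no peak within 5 kb of Trdd1, and its nearest was the Trdj1 peak at 10197 bp. A peak at Trdd1 was thus listed in 1 of the 2 replicates.

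Beside Trdj2, the second joining segment, replicate 1 alone had a peak, at 948 bp (54135553 to 54135830), with a fold of 1.36 and a −log10 q of 1.07. Its fold was below that of all but 4.31% of the peaks of replicate 1, while its −log10 q exceeded that of 66.0%. Neither replicate had a peak in the 6013 bp from Trdj2 to Trdc, the interval of the delta enhancer. At 4.55 and 3.51 peaks per Mb of chromosome 14, most stretches this short would hold none. Trdc, the delta constant region (chr14:54142851-54146108), had its nearest peak at 7020 bp in replicate 1 and at 17755 bp in replicate 2. Trdv5, the variable segment between Trdc and Traj61, had its nearest peak at 12831 bp and 23566 bp.

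From Trdd1 to Trdc (32641 bp), peaks covered 562 bp in replicate 1 and 1422 bp in replicate 2. They overlapped over 284 bp, or 0.870% of the cluster, all of them beside Trdj1. Acetylation in the delta cluster was thus 1 shared stretch after the first joining segment, within 5 kb of Trdd2 and Trdj1. Trdd1 and Trdj2 had a peak within that distance in replicate 1 alone, and Trdc had none.

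**Figure D2:**
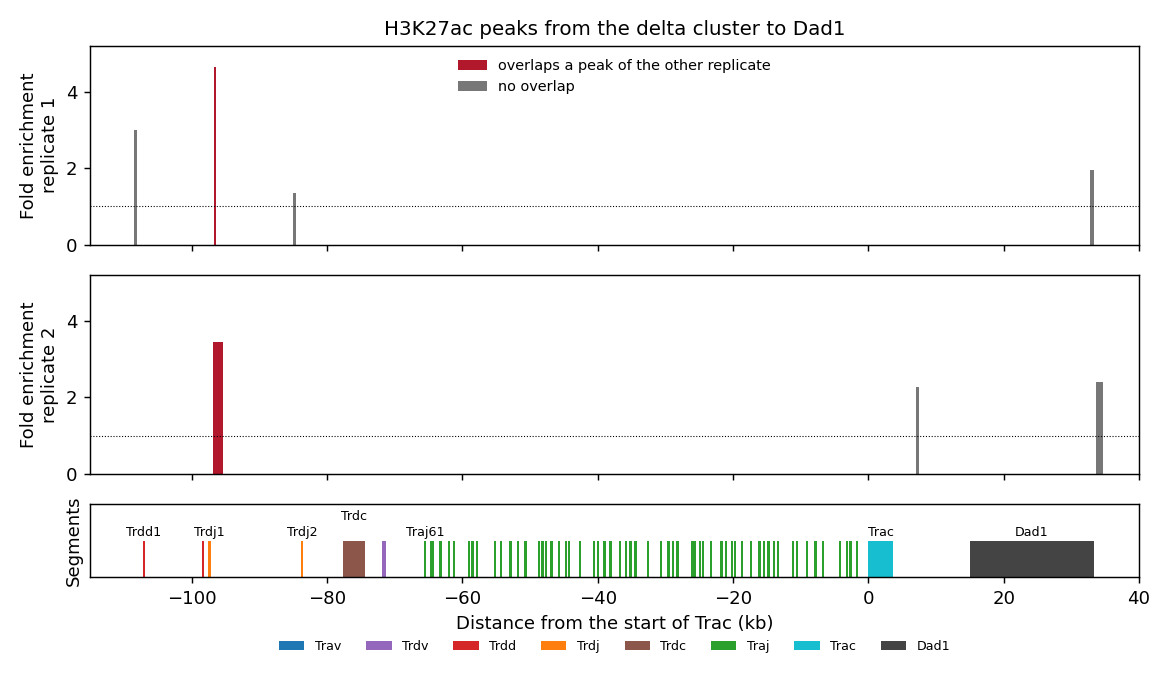
Peaks of each replicate from the delta cluster to Dad1, drawn at their distance from the start of Trac (kb) with the height giving the fold enrichment, above the segments, with narrow features widened and overlapping peaks in red. The peak beside Trdj1 is in both replicates, and 64 segments from Trdj2 to Trac lie in a stretch without any peak.

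The alpha joining and constant end had no peak. Traj61, a joining pseudogene at its 5' end (chr14:54155005-54155076) near the start of the germline T early alpha transcript, had its nearest peak at 19174 bp in replicate 1 and at 29909 bp in replicate 2. None of the 60 Traj segments had a peak within 5 kb in either replicate. Over all RefSeq genes 23.3% had one in replicate 1 and 19.5% in replicate 2. The Traj lie side by side, so they are not 60 separate observations. Chromosome 14 had 4.55 and 3.51 peaks per Mb, so a stretch of their length would often hold none. Of the Traj segments Traj1 came nearest, 8803 bp from the peak beyond Trac in replicate 2. Over the 69194 bp from Traj61 to Trac, 0 bp were covered in each replicate. The stretch without a peak of either replicate ran from 54135831 to 54227645, 91.8 kb, and held 64 segments: Trdj2, Trdc, Trdv5, the 60 Traj and Trac. It was 117 kb long in replicate 1 and 103 kb in replicate 2.

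Trac, the alpha constant region (chr14:54220521-54224198), had 1 peak within 5 kb, in replicate 2. It ran from 54227646 to 54227933, 3447 bp beyond Trac in the interval that holds the alpha enhancer, with a fold of 2.28 and a −log10 q of 1.05. That fold was close to the median of replicate 2, and exceeded 47.1% of its peaks. Replicate 1 had no peak in that interval of 11286 bp. The interval therefore had 0 bp covered by both replicates.

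Dad1, a housekeeping gene whose product is a subunit of the oligosaccharyltransferase that attaches sugars to proteins, is the next gene after Trac (chr14:54235485-54253929). Each replicate had 1 peak at its far end, away from Trac, and these did not overlap. In replicate 1 the peak lay inside Dad1, from 54253275 to 54253819, with a fold of 1.94 and a −log10 q of 0.714. In replicate 2 it lay 253 bp outside Dad1 and inside Abhd4, a lipase gene that starts next to Dad1 and runs the other way, from 54254183 to 54255258, with a fold of 2.41 and a −log10 q of 0.923. The peaks were 363 bp apart. The mean fold was 2.17 ± 0.33 (SD, n = 2).

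The 199 bases between the annotated starts of Dad1 and Abhd4 fell in the gap between these peaks, 110 bp from that of replicate 1 and 54 bp from that of replicate 2. They are shown as the sequence between the starts of this gene pair. Neither replicate had a peak on both sides of it. The sequence comes from RefSeq (GRCm38.p6), chr14:54253930-54254128, and is written 5' to 3' on the minus strand, in the direction of Dad1.

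Dad1-Abhd4: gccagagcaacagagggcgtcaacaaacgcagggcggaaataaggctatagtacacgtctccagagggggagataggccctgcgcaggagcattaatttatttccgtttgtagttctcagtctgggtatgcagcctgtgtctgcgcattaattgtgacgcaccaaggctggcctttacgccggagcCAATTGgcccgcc

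Capitals mark the single match to the E box CANNTG, the letters bound by E proteins. Such a match stood in 57.7% of 27025 promoters over a stretch of the same length. Both strands were searched. The other motifs searched, TGACGTCA (cAMP response element), ATTTGCAT (octamer), CACAGTG and ACAAAAACC (heptamer and nonamer of the recombination signal) and TGTGGTT (Runx), had no match there, and stood in 0.255% to 4.47% of promoters. G and C made up 54.8% of the bases, against a median of 52.7% over all promoters. Of the members, Dad1 alone had a promoter in the table.

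Few variable segments had a peak near them. Of 136 Trav and Trdv segments, 8 had a peak within 5 kb in replicate 1, 8 in replicate 2, 12 in either and 4 (2.94%) in both. The 4 are the members, which were chosen for this. None of the 6 Trdv segments, the variable segments of the delta chain, had a peak. Outside this locus 2.92% of 411 variable segments met the same rule, in a set made up mostly of immunoglobulin segments. Of the other T cell receptor variable segments, 7 of 35 in Tcrb (20%) and 4 of 7 in Tcrg (57.1%) did. Each of the 12 had a peak of its own, and 11 of the 12 lay at least partly under it. The exception was Trav7d-6, 1975 bp from a peak of replicate 1.

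Trav15d-2-dv6d-2 (chr14:52956828-52957400), a segment that can serve both the alpha and the delta chain by its name, had the widest shared acetylation of the 4. Its peaks ran from 52957130 to 52958241 in replicate 1 and from 52956846 to 52957991 in replicate 2, with 862 bp in common. The folds were 2.49 and 2.53, a mean of 2.51 ± 0.030 (SD, n = 2). The −log10 q was 1.00 and 1.42, so this segment passed a q of 0.05 in replicate 2.

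Trav15n-2 (chr14:53267963-53268535) had peaks from 53268097 to 53268492 and from 53267981 to 53268535, with 396 bp in common. Its folds were 2.20 in replicate 1 and 1.94 in replicate 2 (mean 2.07 ± 0.19, SD, n = 2), with −log10 q of 0.763 and 0.677. Neither of these peaks ran past the end of the segment, while both of those at Trav15d-2-dv6d-2 did.

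Trav13d-3 (chr14:53032902-53033419) was covered in full by each replicate. Its peaks ran from 53032711 to 53033487 and from 53032856 to 53033746 and shared 632 bp, with folds of 2.04 and 2.10 (mean 2.07 ± 0.044, SD, n = 2) and −log10 q of 0.649 and 0.736. The segment lies inside the long non-coding RNA gene Gm30214 in the RefSeq table.

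Trav13n-3 (chr14:53337122-53337639) had peaks from 53336975 to 53337523 and from 53337164 to 53337900, with 360 bp in common. Its folds were 2.19 and 2.61 (mean 2.40 ± 0.29, SD, n = 2) and its −log10 q was 0.858 and 1.28. All 4 variable members thus had folds between 1.94 and 2.61, near the medians of all peaks, while both peaks beside Trdj1 were taller. At none of the 4 did both replicates have a q of at most 0.05.

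**Figure D3:**
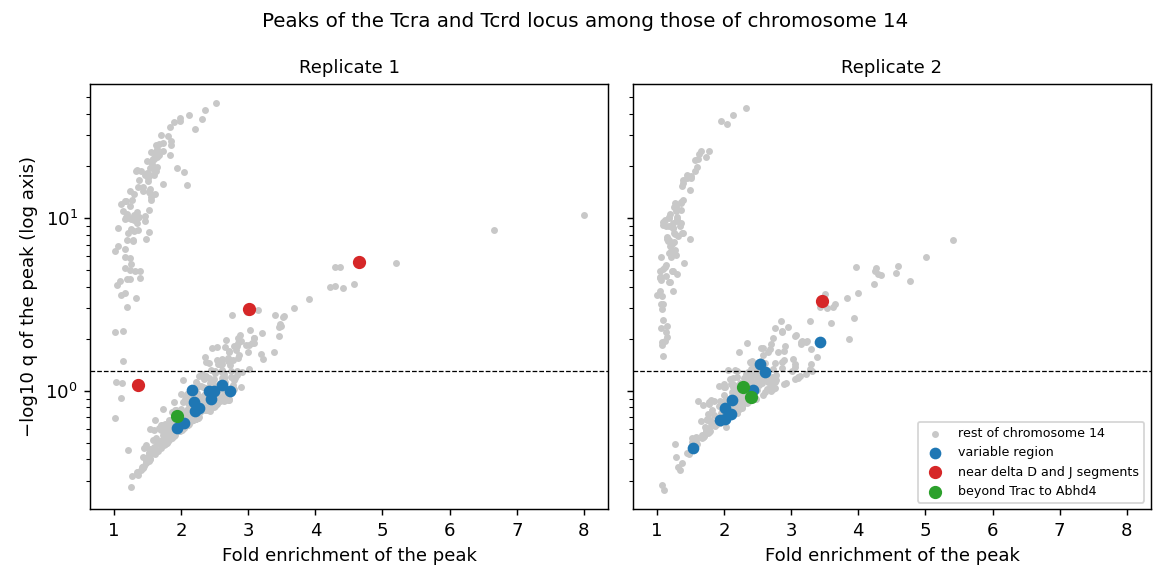
Fold enrichment (x axis) against −log10 q (y axis, log scale) of every chromosome 14 peak, 567 in replicate 1 and 438 in replicate 2, with those of the variable region in blue, of the delta D and J segments in red and beyond Trac in green, and a dashed line at a q of 0.05. The peak beside Trdj1 is the rightmost coloured point in each replicate. Most of those of the variable region lie low on the main band, with 0 and 2 above the line. The exception in replicate 2, at Trav15d-1-dv6d-1, has a fold of 3.43, close to the 3.46 beside Trdj1.

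All peaks of the variable region, from Trav1 to Trdv4 (1647549 bp), were then set against its segments. Replicate 1 had 11 peaks there, of which 7 overlapped a variable segment, and replicate 2 had 10, of which 8 did (63.6% and 80%). The segments make up 4.28% of the bases of the region. That is not the same measure, as a peak of many bases would touch a segment more often than that by position alone. Folds of these peaks ran from 1.94 to 2.72 in replicate 1 (median 2.27) and from 1.54 to 3.43 in replicate 2 (median 2.11). The 3.43 was at Trav15d-1-dv6d-1, a 229 bp peak with a −log10 q of 1.91 and no partner in replicate 1. The region had 6.68 and 6.07 peaks per Mb, against 4.55 and 3.51 on chromosome 14 up to its last gene.

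The segments with a peak belonged to 4 of the 23 Trav families. In either replicate they were 4 of 13 Trav13, 4 of 9 Trav15, 2 of 15 Trav6 and 2 of 14 Trav7 segments. The other 19 families, with 79 segments, had none. Most of these 19 are small, with 1 to 3 segments. Over all 130 Trav segments 12 had a peak in either replicate, so a family that small would often have none. Trav13-5, a Trav13 segment near the 3' end of the variable region, had a peak of fold 2.45 in replicate 1 alone.

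Many of these segments are copies of each other. The middle of the variable region of C57BL/6 mice is duplicated, and segments are named with d or n for the repeated blocks, beside unlettered ones. By copy, 6 of 40 d segments, 4 of 34 n segments and 2 of 56 unlettered segments had a peak within 5 kb in either replicate. Replicate 1 gave 4, 2 and 2 of them and replicate 2 gave 4, 4 and 0, of which 2, 2 and 0 had a peak in both. Both members of the Trav13 family are the d and n copies of 1 segment, as are both of the Trav15 family.

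In 4 groups of copies both the d and the n copy had a peak. In replicate 2 the peaks at Trav15d-2-dv6d-2 and Trav15n-2 both began 18 bp after the start of the segment, although the segments lie 311135 bp apart. So did those of Trav6d-7 and Trav6n-7, which both began 15 bp after it and lie 311186 bp apart. At Trav13d-3 and Trav13n-3 the starts differed by 44 bp in replicate 1 and by 88 bp in replicate 2. At Trav15d-1-dv6d-1 and Trav15n-1 they differed by 292 bp, and at the Trav15-2 pair in replicate 1 by 168 bp. The ends differed by 66 to 884 bp over these pairs, more than the starts in 4 of the 6 comparisons. In 2 further groups the d copy alone had a peak, in replicate 1. These were Trav7d-4, whose n copy Trav7n-4 had its nearest peak at 57858 bp, and Trav7d-6, where the nearest to Trav7n-6 lay at 11766 bp.

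Of the unlettered copies of the 4 groups, Trav13-3 had a peak in replicate 1 alone, 2563 bp wide (53728300 to 53730862, fold 2.16). Trav15-2-dv6-2, Trav15-1-dv6-1 and Trav6-7-dv9 had none within 5 kb in either replicate. How reads that match several copies were placed is not stated in the sources used here, and its part in these peaks was not tested. Where reads match both copies equally, acetylation of 1 copy and of both cannot be told apart.

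**Figure D4:**
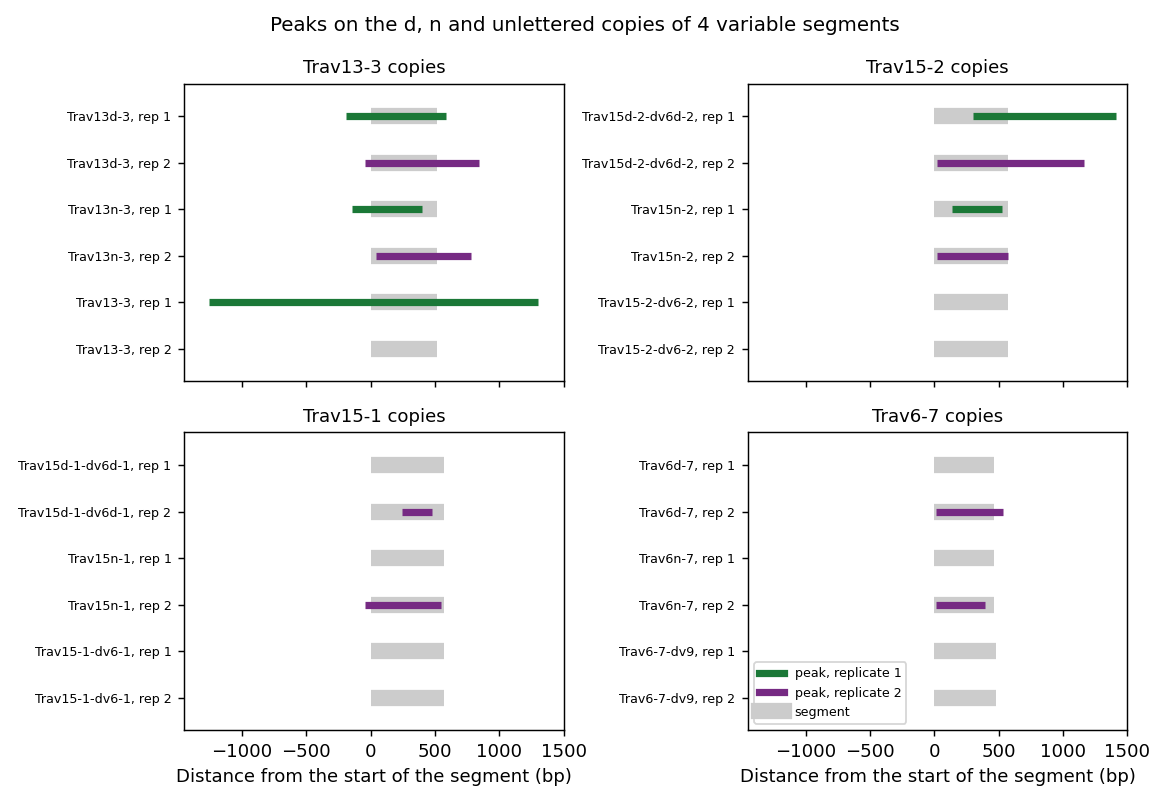
Peaks of replicate 1 (green) and replicate 2 (purple) over the d, n and unlettered copies of the 4 variable segments (grey) with a peak on both lettered copies, drawn at their distance in bp from the start of each segment. Peaks of replicate 2 begin at the same distance, 18 bp and 15 bp, on the d and n copies of Trav15-2 and Trav6-7.

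Longer stretches of the variable region had no peak. Between 53795782 and 54112030, 316 kb with the 12 segments from Trav17 to Trdv4, neither replicate had one. In replicate 2 the stretch without a peak ran over 556 kb, from 53567878 to the Trdj1 peak. Another of 260 kb near the 5' end held 12 segments from Trav2 to Trav6d-4. The d and n blocks, from 52683964 to 53375278, make up 42.0% of the variable region and held 7 of its 11 peaks in replicate 1 and 8 of 10 in replicate 2. They also hold most Trav segments, 40 d and 34 n against 56 unlettered ones elsewhere, and most of these peaks lay on segments.

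Set beside the other T cell receptor loci, Tcra and Tcrd had few segments with a peak of both replicates near them. Peaks of both replicates lay within 5 kb of 6 of its 202 segments (2.97%), of 25 of 53 Tcrb segments (47.2%) and of 10 of 15 Tcrg segments (66.7%). Of all antigen receptor segments outside the locus, 8.47% met the rule. These are single loci whose segments share peaks, and the difference was not tested. Neither Trac nor Trdc had a shared peak, while Trbc1 and Trbc2 of Tcrb, Trgc1, Trgc2 and Trgc4 of Tcrg and Ighm of the heavy chain locus did, and Igkc of the kappa locus did not. By a q of at most 0.05 in both replicates, 2 of the 202 segments of Tcra and Tcrd were left, Trdd2 and Trdj1 with their 1 common peak. Of Tcrb and of Tcrg 0 were left, and over all RefSeq genes 2.61% met this rule. In replicate 2 alone the largest −log10 q was 14.6 at Trbc1 and Trbc2, 2.19 at Trgc2 and 2.62 at Trgc4. In replicate 1 it was 0.841, 0.772 and 0.801. The counts under this rule thus do not rank the loci.

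Most genes of factors known to bind the alpha or delta enhancer had a peak in or near them. A peak of both replicates lay within 5 kb of 9 of 10 (Runx1, Cbfb, Ets1, Tcf7, Gata3, Myb, Tcf3, Tcf12 and Creb1). This held for 24.9% of 21887 protein-coding genes, and Lef1 had a peak in replicate 1 alone. A peak anywhere inside a gene counts, so long genes such as Runx1, Ets1 and Tcf12 meet the rule more easily. Gene length was not matched. Gata3, a factor of T cell commitment, had folds of 2.33 and 2.34, and Myb, a factor of early thymocytes, 2.08 and 2.23. The peaks of Runx1 and of Cbfb, which encode the parts of core binding factor, did not overlap between replicates. With a q of at most 0.05 in both replicates 2 of the 10 were left, Ets1 and Tcf12. Both lie on chromosome 9, where their largest fold in a replicate was 1.11 to 2.06 and their largest −log10 q was 5.01 to 34.9. The list was chosen with earlier results of these data known.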

How the data were processed

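H3K27ac was measured by chromatin immunoprecipitation in 2 replicates. Chromatin was first captured with an H3 antibody, per the labels' protocols. The submitters' processing notes name Bowtie2, mm10 and MACS 1.4.2. The deposited files are named for MACS2 and hold 1 list per sample after duplicate removal, per the file names and peak names, so the caller's version is uncertain. The sources used here give neither cutoff nor control. The fold of each peak, a ratio, and its −log10 p and −log10 q are the authors' own. The score the authors deposited equals 10 times −log10 q cut to a whole number in 12451 of 12452 and 9532 of 9532 peaks, and was not used.

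Coordinates count from 1. Peaks were matched to RefSeq genes (GRCm38.p6) within 5 kb, a distance of 0 meaning overlap. Overlap between replicates means at least 1 bp. The functions were tested on simulated data. Percentiles rank a peak among those of its replicate. The genes named are the members, segments of the same locus by fixed classes and families, coding genes within 200 kb, constant regions of other receptor loci, enhancer-binding factors and cell markers, of which 1 is not reported here. The members and lists were chosen with earlier results of these data known. The tables used here hold no promoter or other sequence for the 202 segments. Python 3.11.15 was used with pandas 2.3.3.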

Additional observations from a re-analysis of the deposited data

How the results depend on the processing

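The 6 members and 4 variable segments with a peak in both replicates stayed at 6 and 4 within 1 kb and without peaks of a fold under 2 and a −log10 p of at least 5. Within 10 kb the members stayed at 6 and the variable segments rose to 11. With q of at most 0.05 the counts were 1 and 0, with q of at most 1e-05 they were 0 and 0, and where the peaks must overlap by 50% of each they were 3 and 3. Leaving out each replicate in turn gave 7 to 7 members and 8 to 8 variable segments. The 284 bp shared in the delta cluster stayed at 284 with q of at most 0.05, were 0 with q of at most 1e-05 and 0 with the 50% overlap, and the single replicates gave 562 to 1422 bp. The alpha joining and constant end had 0 bp under each of these settings. Between Trac and Dad1 the single replicates gave 0 to 288 bp and the other settings 0. Under the 50% rule the members lost were Trdj1, where 284 of the 1422 bp of the peak of replicate 2 overlapped, Trav13n-3 (48.8%) and Dad1 (0 bp). The cause of the other shifts was not tested. No paired analysis was possible because there is 1 group. With unknown depth, an absent peak does not show absent acetylation.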

Other observations

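Beyond Dad1 the replicates shared acetylation at Gm43305, a long non-coding RNA gene, where peaks had folds of 2.27 and 2.25 and 719 bp in common. The peaks of a fold of 1.43 and 2.59 near 54306387 shared 213 bp, 82188 bp and 81648 bp beyond Trac. Oxa1l, which encodes a mitochondrial insertase, had a peak in replicate 2 alone (fold 2.19), and Olfr49 and Slc7a7 had none. On the other side of the locus, before Trav1, peaks of both replicates lay at Chd8, Rab2b and Tox4, and Mettl3 had one in replicate 1 alone. Of the olfactory receptor genes there and inside the locus, Olfr1511 and Olfr1507 had a peak in replicate 2 alone, with folds of 2.23 and 2.43.

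Chromosome 14 holds 104 peaks in replicate 1 and 86 in replicate 2 with a fold under 2 and a −log10 p of at least 5, and none lies in the locus or after it. The last of them before the locus ended at 47473301 in replicate 1 and at 52257526, inside Chd8, in replicate 2. There the peak of replicate 2 had a −log10 q of 5.49, and the overlapping one of replicate 1 had 1.02 with a fold of 2.46.

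As at Dad1, neighbouring peaks of the replicates without overlap lay 532 bp apart near 53567877, 8162 bp and 6917 bp from Trav15-1-dv6-1.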
